A study of Sus scrofa with 4 samples.

Results

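Serpins were described here in lung cells of pigs: they are the family of folded proteins that includes the major inhibitors of serine proteases in blood and tissue. The members were the rows of the deposited count tables whose gene name begins with SERPIN, a letter from A to I and a digit, with SERPING1, the complement C1 inhibitor, left out by the rule. There are 28 members described here, among 29263 genes in all. All 4 libraries came from lung of animals with the genotype LGR5-H2B-GFP knock-in. These animals make green fluorescent protein, joined to a histone, from the locus of LGR5, a receptor for R-spondins. Cells were sorted by fluorescence into a bright fraction, GFP-HI (n = 2), and a fraction without fluorescence, GFP-NEG (n = 2), and the titles number the biological replicates 1 and 2 in each. The knock-in was shared by both groups, so that no library came from an unmodified animal, and a histone fusion can persist in a cell after the gene that drove it is no longer transcribed. No strain, sex, treatment, number of animals per library or antibody gate was given for these libraries, and the stage can be read only from the name of the deposited comparison table, which mentions adult pig.

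Most serpins act as suicide inhibitors: a protease cuts an exposed loop of the serpin, stays bound to it and is carried out of shape as the loop folds into the body of the protein. Several members have kept the fold without the inhibition and serve as hormone carriers, chaperones or signalling proteins. In the lung the family is best known for alpha-1 antitrypsin, which is made mainly by the liver and shields alveolar walls from neutrophil elastase. Members of clade B lack a classical signal peptide and mostly act inside cells, where those of leukocytes protect the cell from its own granule proteases.

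The GFP-HI libraries held 24200550 and 24689986 counts and the GFP-NEG libraries 6292253 and 7045652, so that depth cannot be told apart from group by the design. One count was worth 0.0453 to 0.0496 CPM in GFP-HI and 0.110 to 0.155 CPM in GFP-NEG. CPM are counts scaled to library total and to a TMM factor, as set out under processing. LGR5 was at 146 and 152 CPM in GFP-HI and at 1.55 and 0.767 CPM in GFP-NEG, which follows the labels of the sort. Of the 11 fibroblast markers 8 passed the threshold given below as higher in GFP-HI, beside 8.35% of all tested genes. All 12 called genes of the 15 immune markers were lower there, beside 27.6% of all tested genes. The 9 smooth muscle and pericyte markers went both ways, with 2 higher and 3 lower. P-values below measure the spread between these libraries as shared by genes of similar level, and not the spread of each gene alone. In bulk libraries of this kind, fewer cells of a type and less RNA per cell cannot be told apart.

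Levels rose for SERPINF1 and SERPINA6 in GFP-HI and fell for SERPINB1, SERPINB2, SERPINB9, SERPINB10 and SERPINA3-2, while 7 further members were measured without passing the threshold. The threshold was an adjusted p under 0.05 in edgeR's quasi-likelihood test, fitted over 19682 genes. Of the 28 members 14 passed the filter on low counts, and 14 were too low to be tested. Of the 14 tested members 2 were called higher, against a background of 8.35% of all tested genes, and 5 were called lower, against 27.6%. The groups did not overlap for 9 of the 14, with GFP-HI above in 3 (27.7% of all tested genes) and below in 6 (42%). In 11 of the 14 the difference had the same sign within both replicates, as it had in 79.9% of all tested genes. The median log2 fold change of the 14 was -0.75, beside -0.25 over all tested genes, and it was the same with SERPINA3-2, which had no count in GFP-HI, at its bound. A low member can pass the filter through its higher group alone, as SERPINA3-2, SERPINB2 and SERPINB5 did through GFP-NEG. For such members the filter favoured a lower value in GFP-HI. These counts therefore describe the tested members and not the family. Without GFP-HI replicate 1 the calls were 1 higher and 2 lower, without GFP-HI replicate 2 they were 0 and 2, without GFP-NEG replicate 1 they were 4 and 5, and without GFP-NEG replicate 2 they were 0 and 3. Each of these fits rests on 3 libraries, with the lone library of a group assumed to vary like the others. As background, both genes called higher encode serpins that do not inhibit proteases.

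**Figure D1:**
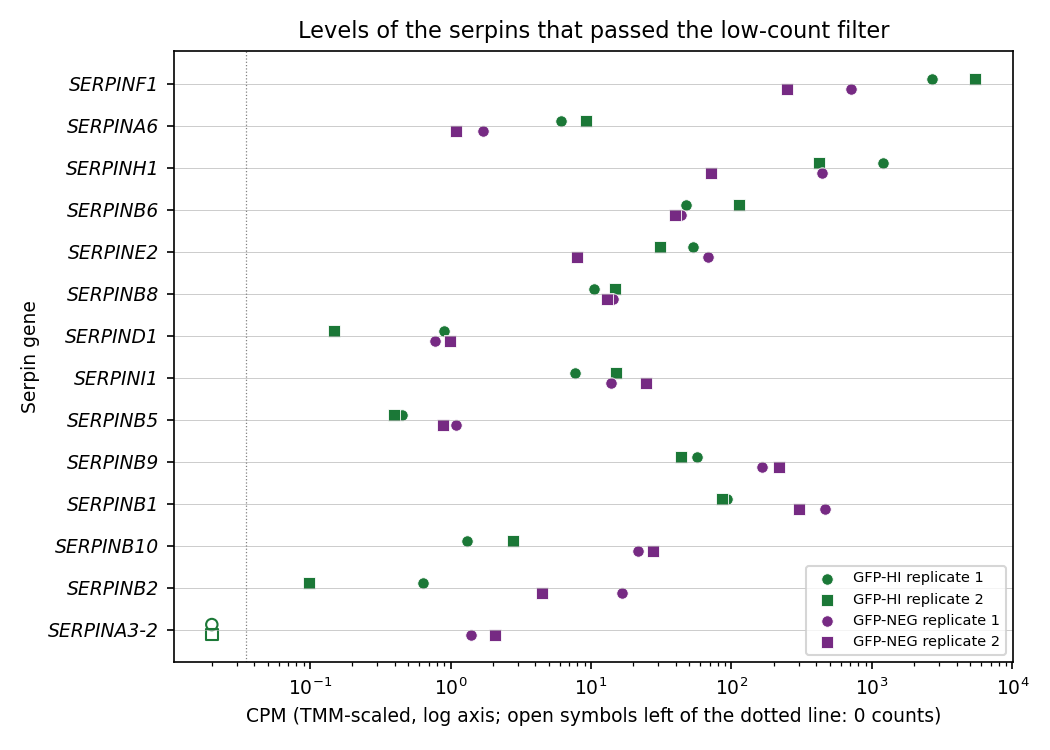
Level of each of the 14 tested serpins in every library, in CPM on a log axis, with GFP-HI in green, GFP-NEG in purple, circles for replicate 1 and squares for replicate 2. SERPINF1 and SERPINA6 lie higher in both GFP-HI libraries than in either GFP-NEG library, SERPINB1, SERPINB2, SERPINB9 and SERPINB10 lie lower in both, and SERPINA3-2 had 0 counts in GFP-HI.

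SERPINF1 encodes pigment epithelium-derived factor, a secreted protein of connective tissue that restrains vessel growth and does not inhibit proteases. It had 58969 and 108793 counts in GFP-HI, or 2672 and 5393 CPM, and 4567 and 2253 counts in GFP-NEG, or 709 and 247 CPM. Both GFP-HI libraries were above both GFP-NEG libraries, and the lower GFP-HI value came from replicate 1, whose GFP-NEG partner was the higher of its group. The mean was 4032 ± 1924 CPM in GFP-HI, against 478 ± 327 CPM in GFP-NEG (SD, n = 2 each). This is a log2 fold change of 3.08 ± 1.10 (SE), or 8.44-fold, for which edgeR gave an adjusted p of 0.018. Within replicate 1 the difference in log2 CPM was 1.91, and within replicate 2 it was 4.45. The call was lost without GFP-HI replicate 2 (log2 fold change 2.54, adjusted p 0.084 in edgeR) and without GFP-NEG replicate 2 (2.47, adjusted p 0.23), and the value was 4.08 without GFP-NEG replicate 1 (adjusted p of 0.014) and 3.60 without GFP-HI replicate 1 (adjusted p of 0.019).

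SERPINH1 encodes HSP47, a chaperone of the endoplasmic reticulum that binds newly made procollagen and does not inhibit proteases. Its levels were 1188 and 419 CPM in GFP-HI, from 26228 and 8453 counts, and 443 and 71.4 CPM in GFP-NEG, from 2851 and 651 counts. The groups overlapped, because GFP-HI replicate 2 lay just under GFP-NEG replicate 1, although each GFP-HI library was above the GFP-NEG library of the same number. The log2 fold change of 1.65 ± 0.76 (SE) did not pass the threshold in edgeR (adjusted p of 0.077). With the replicate number as a block, which compares libraries of the same number and assumes that they come from 1 animal, it was 1.99 ± 0.70 (SE) and passed (adjusted p of 0.022, edgeR), against a background of 8.67% of genes called higher in that fit. The within-replicate differences in log2 CPM were 1.42 and 2.55. The unblocked value was 3.54 without GFP-NEG replicate 1, where it passed (adjusted p of 0.0079, edgeR), 0.79 without GFP-HI replicate 1 and 0.82 without GFP-NEG replicate 2.

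Genes that fold and modify procollagen beside SERPINH1 were taken from a written list of prolyl and lysyl hydroxylases, their partners and chaperones of the endoplasmic reticulum. Of the 24 tested, 6 rose and 0 fell (edgeR, adjusted over all genes), beside 8.35% and 27.6% of all tested genes, with a median log2 fold change of 1.11 beside -0.25 over all genes. No tested gene of the list had a fold change under 0, and 0 fell under DESeq2. The 6 were FKBP14 (log2 fold change 3.25), P4HA2 (2.51), KDELR3 (2.46), FKBP10 (2.30), P4HB (1.47) and CRTAP (1.42). FKBP10 and FKBP14 are prolyl isomerases of collagen folding, P4HA2 and P4HB are subunits of prolyl 4-hydroxylase, CRTAP is part of the prolyl 3-hydroxylation complex, and KDELR3 returns resident proteins to the endoplasmic reticulum. The general chaperones HSPA5 and HSP90B1 had values of 0.40 and 0.94, which did not pass (adjusted p of 0.74 and 0.36, edgeR), and were named after their values were seen. The number that rose was 10 without GFP-NEG replicate 1 and 1 without GFP-NEG replicate 2, where FKBP14 was the one to pass. KDELR3 and CRTAP also lost their calls without GFP-HI replicate 2 (adjusted p of 0.060 and 0.11), P4HB and CRTAP lost theirs without GFP-HI replicate 1 (adjusted p of 0.32 and 0.18), and CRTAP did so under DESeq2 (adjusted p of 0.063). The fibroblast markers summed to 83064 and 73024 CPM in GFP-HI and to 25508 and 9219 CPM in GFP-NEG, with none of the 11 at 0 in any library. The collagen genes COL1A1, COL1A2 and COL3A1 had the highest levels in these sums. Their log2 fold changes of 1.88, 1.79 and 2.16 did not pass (adjusted p of 0.36, 0.46 and 0.29, edgeR). The part of the fibroblast markers in the differences of SERPINF1 and SERPINH1 was not tested.

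**Figure D2:**
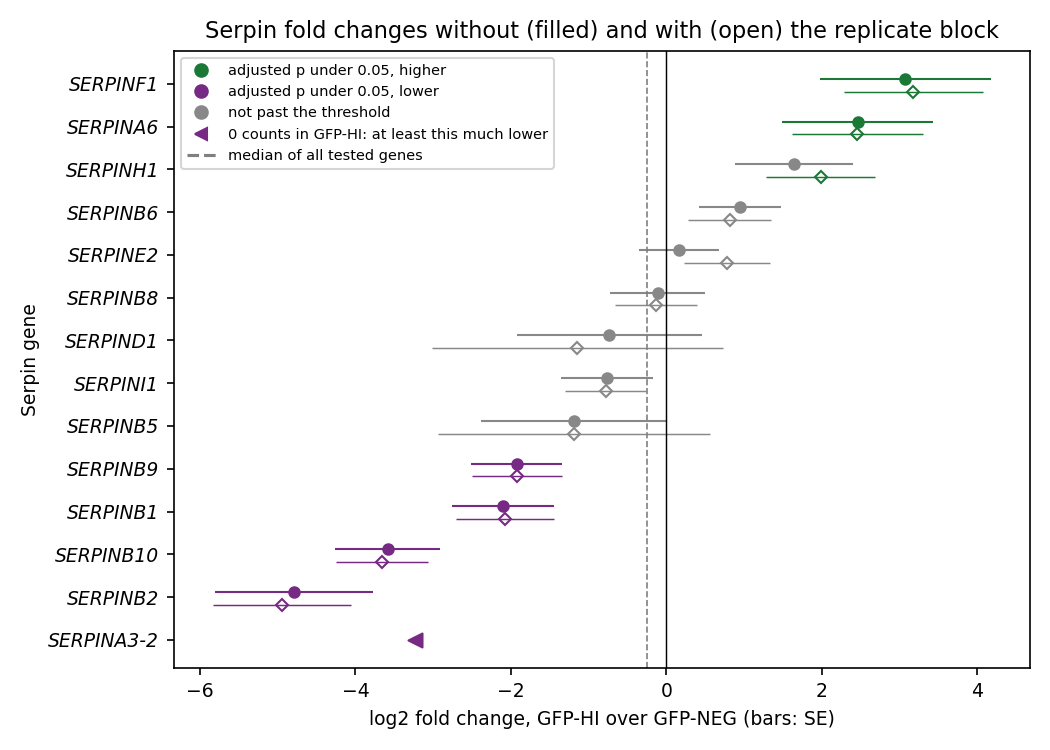
Log2 fold change of GFP-HI over GFP-NEG for each tested serpin, with its SE as a bar, without the replicate block (filled circles) and with it (open diamonds). The dashed line marks the median of all tested genes at -0.25, the arrowhead for SERPINA3-2 is a lower bound, and SERPINH1 is the member that changes its call with the block.

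Among the secreted members of clade A, SERPINA6 rose. It encodes corticosteroid-binding globulin, the carrier of cortisol in blood, which is made mainly by the liver and does not inhibit proteases. It had 136 and 187 counts in GFP-HI, or 6.16 and 9.27 CPM, against 11 and 10 counts in GFP-NEG, or 1.71 and 1.10 CPM. All GFP-HI values were above all GFP-NEG values. Its log2 fold change came to 2.47 ± 0.97 (SE), a 5.52-fold difference, and edgeR gave an adjusted p of 0.034. This call was lost with scaling by library size (2.05, adjusted p of 0.18), with upper quartile scaling (2.16, adjusted p of 0.13) and with GFP-HI thinned to the GFP-NEG depth (2.15, adjusted p of 0.087). It was also lost without GFP-HI replicate 1 (2.86, adjusted p of 0.051), without GFP-HI replicate 2 (2.22, adjusted p of 0.17) and without GFP-NEG replicate 2 (2.13, adjusted p of 0.21, all edgeR). The difference stayed above 2 on the log2 scale in each of these fits.

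SERPINA3-2, a pig copy of the alpha-1 antichymotrypsin gene, had 0 counts in both GFP-HI libraries, and the GFP-NEG libraries held 9 and 19 counts, or 1.40 and 2.08 CPM. It fell past the threshold (adjusted p of 2.0e-04, edgeR) and was at least 9.40-fold lower in GFP-HI. This bound, like those below, sets the lesser of the GFP-NEG values over a floor of 3 counts in a GFP-HI library. It allows for no counting error in the GFP-NEG value. The call was lost without GFP-HI replicate 1 (adjusted p of 0.074) and without GFP-HI replicate 2 (adjusted p of 0.078, edgeR). With GFP-HI thinned and without GFP-NEG replicate 2 it fell under the filter and was not tested. SERPINA3 exists in several near-identical copies in pig, and how reads were divided between them is uncertain. The list of 14 hepatocyte markers, of which 13 had a row, was also lower in GFP-HI. Of its 6 tested genes 4 passed the threshold as lower, beside 27.6% of all tested genes. Among these, APOA2, TAT and TTR passed the filter on low counts through GFP-NEG alone, which favoured a lower value. The other tested genes, FGB and HPX, had log2 fold changes of -0.25 and -0.12 and did not pass. The summed level of the list was 26.2 and 18.9 CPM in GFP-HI and 115 and 47.5 CPM in GFP-NEG. Most of this was APOA1, at 22.5 and 15.3 CPM in GFP-HI and at 104 and 25.5 CPM in GFP-NEG. ALB, the defining gene of the list, had 4 and 0 counts in GFP-HI against 1 and 16 in GFP-NEG, and APOA2 had 0 and 0 against 25 and 65. Their part in the low levels of liver serpins was not tested.

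The 6 other clade A members were under the filter. SERPINA1, which encodes alpha-1 antitrypsin, had 0 counts in both GFP-HI libraries and 3 and 7 in GFP-NEG. A second row, known in the tables only as ENSSSCG00000038515 and given the symbol SERPINA1 by the name table, had 8 and 4 counts in GFP-HI against 2 and 55 in GFP-NEG, so that reads of this gene may be divided between rows. SERPINA5, the protein C inhibitor, had 0 counts in GFP-HI against 7 and 6 in GFP-NEG. By the same floor it was 4.42-fold lower, again with no counting error allowed for on the 6 counts. SERPINA7, the thyroxine-binding globulin, had 0 and 11 counts in GFP-HI against 1 and 4 in GFP-NEG. SERPINA12, known as vaspin, had 1 and 0 counts against 3 and 1, SERPINA11 had 1 count in a single GFP-NEG library, and SERPINA4, known as kallistatin, had 0 counts in all 4 libraries. A count of 0 allows up to 0.136 and 0.149 CPM in the GFP-HI libraries and up to 0.466 and 0.329 CPM in the GFP-NEG libraries, counting error only.

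SERPINE2 encodes protease nexin 1, a secreted inhibitor of thrombin and of the plasminogen activators. SERPINE2 was at 53.5 and 31.1 CPM in GFP-HI and at 67.8 and 8.0 CPM in GFP-NEG. The values of GFP-HI lay between those of GFP-NEG. Its log2 fold change of 0.16 ± 0.51 (SE) did not pass the threshold (adjusted p of 0.84, edgeR). The replicates went in opposite directions, with a difference of -0.34 in log2 CPM within replicate 1 and 1.94 within replicate 2. Without GFP-NEG replicate 1 the value was 2.45 and passed (adjusted p of 0.011, edgeR), so that 1 library decided it. SERPINE3 had 0 counts in GFP-HI against 1 and 21 in GFP-NEG and was under the filter.

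Proteases linked to serpins, not all of them established targets, were read from a written list. In it 26 of 32 genes had a row and 19 were tested. Of these 5 rose and 6 fell, beside 8.35% and 27.6% of all tested genes, with a median log2 fold change of -1.96, also with PROC at its bound. Among the genes past the threshold, those with the largest changes were PROC, GZMM, GZMA, F12, CTSL and CTSV. PROC encodes protein C, the target of SERPINA5, and had 0 counts in both GFP-HI libraries against 13 and 88, at least 13.6-fold lower. GZMM and GZMA, granzymes of cytotoxic lymphocytes, had log2 fold changes of -4.95 and -3.56, and coagulation factor F12 fell by 2.75. CTSL and CTSV, lysosomal cathepsins of closely related sequence, rose by 2.86 and 2.71 (edgeR, adjusted p of 0.0099 and 1.9e-04). Without GFP-HI replicate 2 the list had 1 gene higher and 3 lower, and without GFP-NEG replicate 2 it had 0 higher. CTSL and CTSV lost their calls in both of these fits, with CTSL at 1.75 and 1.90 and CTSV at 2.17 and 1.93, and F12 lost its call there and without GFP-HI replicate 1, with values from -2.95 to -1.12. PROC, GZMM and GZMA passed in each fit that left out a library. However, PROC and GZMM entered the main fit through GFP-NEG alone, which favoured a lower value.

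Within that list PLAU, PLAT and F2, which encodes prothrombin, are given as targets of SERPINE2 and were chosen after their values were seen. F2 had 15 and 40 counts in GFP-HI against 3 and 17 in GFP-NEG, and its log2 fold change of 0.16 ± 1.22 (SE) did not pass (adjusted p of 0.93, edgeR). PLAU, urokinase, was at 68.8 and 123 CPM in GFP-HI and at 549 and 366 CPM in GFP-NEG. PLAT, tissue plasminogen activator, was at 68.8 and 113 CPM in GFP-HI and at 34.9 and 7.34 CPM in GFP-NEG. The groups did not overlap for PLAU or PLAT, and these went in opposite directions. In edgeR PLAU had a log2 fold change of -2.25 ± 0.68 (SE, adjusted p 0.0041) and PLAT one of 2.11 ± 0.54 (SE, adjusted p 5.0e-04). PLAU lost its call without GFP-HI replicate 1 (-1.77, adjusted p of 0.12) and without GFP-HI replicate 2 (-2.66, adjusted p 0.057 in edgeR). PLAT lost its call without GFP-HI replicate 2 (1.75, adjusted p of 0.088) and without GFP-NEG replicate 2 (1.34, adjusted p of 0.35), and was at 3.68 without GFP-NEG replicate 1.

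Receptors and cofactors of serpins and of their proteases were read in the same way, with 20 of 21 genes tested, 3 higher and 5 lower (8.35% and 27.6% of all tested genes), and a median of -0.63. LRP1B, a large receptor of the LDL receptor family, had 0 counts in both GFP-HI libraries and 42 and 62 in GFP-NEG, at least 43.8-fold lower. VLDLR, another member of that family that takes up serpin complexes, fell by 2.45 and F3, tissue factor, fell by 2.18 on the log2 scale. F2RL3, a thrombin receptor, had 3 and 0 counts in GFP-HI against 5 and 17 in GFP-NEG, and its call (adjusted p of 0.010) was lost with the replicate block (adjusted p of 0.14, edgeR). F2RL2, another receptor of that family, was at 520 and 927 CPM in GFP-HI and at 104 and 28.0 CPM in GFP-NEG and rose by 3.46. EXT1, which builds heparan sulfate chains, rose by 2.26. PLAUR, the urokinase receptor, had a log2 fold change of -1.42 that did not pass (adjusted p of 0.098, edgeR), and is named for its role after its value was seen. Without GFP-NEG replicate 2 the list had 0 genes higher and 3 lower, and the number lower was 3 without GFP-HI replicate 1, 2 without GFP-HI replicate 2 and 2 without GFP-NEG replicate 1. F2RL2 and EXT1 lost their calls without GFP-NEG replicate 2 (2.77 and 1.78), and F3 lost its call without GFP-HI replicate 2 (-1.54) and without GFP-NEG replicate 1 (-1.29). F2RL3 lost its call without GFP-HI replicate 1, GFP-HI replicate 2 or GFP-NEG replicate 1 (adjusted p of 0.11, 0.34 and 0.17, edgeR). LRP1B and VLDLR passed in each of these fits. However, LRP1B and F2RL3 entered the main fit through GFP-NEG alone, which favoured a lower value.

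Clade B held 11 members, of which 7 were tested, 0 rose and 4 fell, beside 8.35% and 27.6% of all tested genes: SERPINB1, SERPINB2, SERPINB9 and SERPINB10. The number higher was also 0 at an unadjusted p under 0.05 and under DESeq2. All these were lower in both GFP-HI libraries than in either GFP-NEG library, a pattern that 42% of all tested genes had. SERPINB1 encodes an inhibitor of neutrophil elastase and related granule proteases. It was at 93.1 and 85.1 CPM in GFP-HI, from 2056 and 1716 counts, and at 462 and 303 CPM in GFP-NEG, from 2973 and 2765 counts. The GFP-HI libraries were close to each other and far under the lower GFP-NEG library. Its log2 fold change was -2.10 ± 0.66 (SE), a 4.29-fold difference, and edgeR gave an adjusted p of 0.0058.

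SERPINB9 encodes the inhibitor of granzyme B, with which cytotoxic lymphocytes protect themselves. It was at 57.2 and 43.6 CPM in GFP-HI and at 164 and 218 CPM in GFP-NEG. It fell by 1.92 ± 0.59 (SE) on the log2 scale, and edgeR gave an adjusted p of 0.0043. SERPINB1 lost its call without GFP-HI replicate 1 (-2.04, adjusted p of 0.077), without GFP-HI replicate 2 (-1.96, adjusted p of 0.12) and without GFP-NEG replicate 1 (-1.72, adjusted p 0.067 in edgeR). SERPINB9 lost its call without GFP-HI replicate 1 (-1.98, adjusted p of 0.063), without GFP-HI replicate 2 (-1.64, adjusted p of 0.14) and without GFP-NEG replicate 2 (-1.74, adjusted p 0.10 in edgeR).

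SERPINB10, known as bomapin, is expressed in blood-forming cells. It had 29 and 56 counts in GFP-HI, or 1.31 and 2.78 CPM, and 140 and 250 counts in GFP-NEG, or 21.7 and 27.4 CPM. The raw counts were higher in the shallower GFP-NEG libraries. SERPINB10 fell by 3.58 ± 0.68 (SE) on the log2 scale, a 12.0-fold difference, and edgeR gave an adjusted p of 4.6e-06. It kept its call in each of the 12 alternative fits, between -4.12 and -2.99 on the log2 scale.

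SERPINB2 encodes plasminogen activator inhibitor 2, which activated monocytes make in large amounts. It had 14 and 2 counts in GFP-HI, or 0.634 and 0.0991 CPM, and 107 and 41 counts in GFP-NEG, or 16.6 and 4.49 CPM. Replicate 1 was the higher library in both groups, and the groups did not overlap. It passed the filter on low counts through GFP-NEG alone. SERPINB2 fell by 4.79 ± 1.02 (SE) on the log2 scale, and edgeR gave an adjusted p of 4.9e-05. The within-replicate differences in log2 CPM were -4.44 and -4.29. The call was lost without GFP-NEG replicate 1 (-3.53, adjusted p 0.074 in edgeR), and the value was -6.49 without GFP-HI replicate 1, where 2 counts are set against the GFP-NEG libraries.

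The other tested members of clade B did not pass. SERPINB6, an intracellular inhibitor of cathepsin G, was at 47.1 and 113 CPM in GFP-HI and at 43.8 and 39.4 CPM in GFP-NEG. The lower GFP-HI library was barely above the GFP-NEG libraries, and the log2 fold change of 0.95 ± 0.52 (SE) had an adjusted p of 0.15 in edgeR. It was 1.59 without GFP-HI replicate 1 and 0.27 without GFP-HI replicate 2. SERPINB8, an inhibitor of furin, was at 10.4 and 14.8 CPM in GFP-HI and at 14.3 and 12.9 CPM in GFP-NEG. Its log2 fold change was -0.11 ± 0.61 (SE, edgeR adjusted p 0.91). SERPINB5, the epithelial protein maspin, had 10 and 8 counts in GFP-HI against 7 and 8 in GFP-NEG, and its log2 fold change was -1.19 ± 1.20 (SE, edgeR adjusted p 0.47). SERPINB7 had 1 and 7 counts in GFP-HI against 1 and 16 in GFP-NEG. SERPINB11, SERPINB12 and SERPINB13, known from squamous epithelia, had at most 1 count in a GFP-HI library and at most 4 in a GFP-NEG library.

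Leukocyte markers were lower in GFP-HI, as were the clade B genes that fell. The 15 immune markers summed to 373 and 644 CPM in GFP-HI and to 3084 and 4410 CPM in GFP-NEG. Of these 12 were lower and 0 higher, beside 27.6% and 8.35% of all tested genes. Of the neutrophil list, 6 of 10 genes had a row and 5 of these fell, beside the same 27.6%. Their summed level was 188 and 168 CPM in GFP-HI and 1951 and 849 CPM in GFP-NEG. None of these markers was at 0 in any library. Both GFP-HI libraries held reads of PTPRC (CD45), with 1014 and 2442 counts. The part of leukocytes in the differences of SERPINB1, SERPINB2, SERPINB9 and SERPINB10 was not tested. The endothelial list also fell in 9 of 10 tested genes, again beside 27.6% of all tested genes. Its sums were 1479 and 607 CPM in GFP-NEG and 225 and 222 CPM in GFP-HI.

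**Figure D3:**
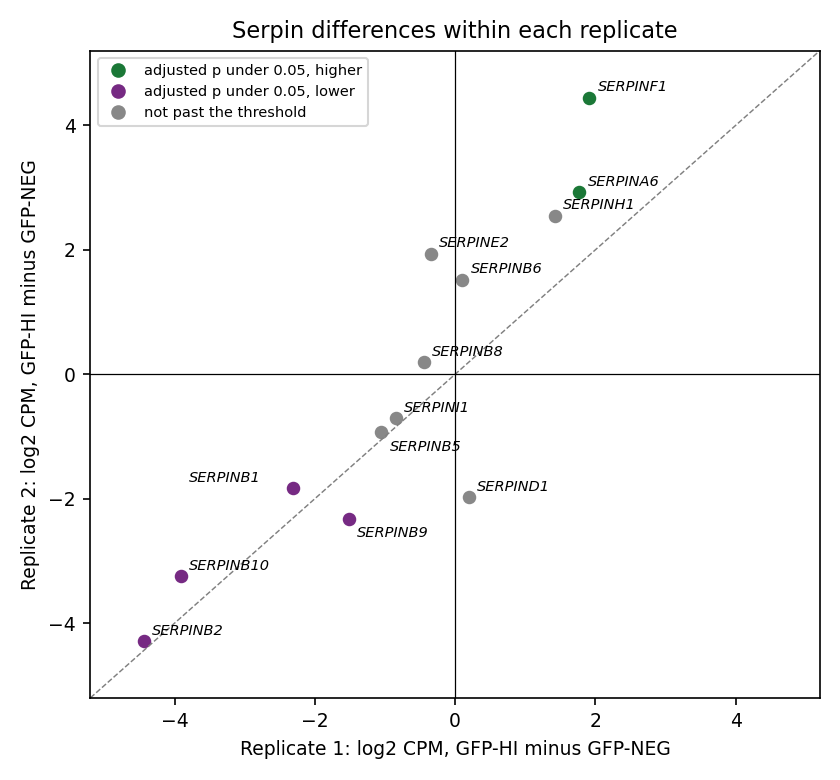
Difference in log2 CPM between GFP-HI and GFP-NEG within replicate 1 (horizontal axis) and within replicate 2 (vertical axis) for the 13 tested serpins with counts in GFP-HI. Points on the dashed line differ equally in both replicates: SERPINB2, SERPINB5 and SERPINI1 lie near it, SERPINF1 lies above it, and SERPINE2, SERPINB8 and SERPIND1 change sign between the replicates.

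The coagulation inhibitors of clades C and D were at the edge of detection. SERPIND1, heparin cofactor II, had 20 and 3 counts in GFP-HI against 5 and 9 in GFP-NEG, and its log2 fold change of -0.73 ± 1.19 (SE) did not pass (adjusted p of 0.68, edgeR). SERPINC1, antithrombin, had 6 and 0 counts in GFP-HI against 4 and 2 in GFP-NEG and was not tested. SERPINI1 encodes neuroserpin, an inhibitor of tissue plasminogen activator known from neurons. It was at 7.70 and 15.1 CPM in GFP-HI and at 14.0 and 24.6 CPM in GFP-NEG. Replicate 2 was the higher library in both groups, and the log2 fold change of -0.76 ± 0.59 (SE) had an adjusted p of 0.33 in edgeR. It ranged from -1.21 without GFP-HI replicate 2 to -0.19 without GFP-HI replicate 1. The neuron and Schwann cell markers summed to 8.16 and 20.4 CPM in GFP-HI and to 8.38 and 16.8 CPM in GFP-NEG, with 0 of 3 tested genes past the threshold.

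SERPINF2, the inhibitor of plasmin, had 0 counts in GFP-HI against 3 and 28 in GFP-NEG, and SERPINI2 had 0 against 1 and 5. Both were under the filter. In all, 10 of the 28 members had 0 counts in both GFP-HI libraries, and 14 members had a count in both. Each GFP-HI library held counts of 16 members, against 25 and 27 members in the shallower GFP-NEG libraries. All genes showed the same pattern: of 29263, 18752 and 18392 had a count in GFP-HI, against 24120 and 25985 in GFP-NEG. With no filter on low counts SERPINE3 and SERPINF2 were called lower as well, and the median of all genes moved to -1.21.

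Serpin genes lie partly in clusters, and order along the chromosome was taken from the RefSeq annotation of Sscrofa11.1, which held 24 of the 28 members. SERPINB10 and SERPINB2, which both fell, are adjacent there with 0 coding genes between them, and so are SERPINB1 and SERPINB9, at another place. SERPINB7 follows SERPINB2 with 1 coding gene between them and was under the filter. SERPINF2 and SERPINF1 are separated by 1 coding gene, and they differed in level, with SERPINF2 at 0 counts in the GFP-HI libraries where SERPINF1 was at 2672 and 5393 CPM. SERPINI2 and SERPINI1 are separated by 2 coding genes.

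The make-up of the family's reads differed between the libraries. These serpins together were at 4139 and 6129 CPM in GFP-HI and at 1965 and 972 CPM in GFP-NEG. SERPINF1 made up 64.6% and 88.0% of their counts in GFP-HI but 36.1% and 25.4% in GFP-NEG. SERPINB1 made up 2.25% and 1.39% in GFP-HI but 23.5% and 31.2% in GFP-NEG, and SERPINB9 1.38% and 0.712% against 8.35% and 22.4%. Read shares depend on transcript length, so they compare a gene between libraries and not genes with each other. Without SERPINF1 and SERPINH1 the other 26 members were at 279 and 317 CPM in GFP-HI and at 813 and 654 CPM in GFP-NEG.

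**Figure D4:**
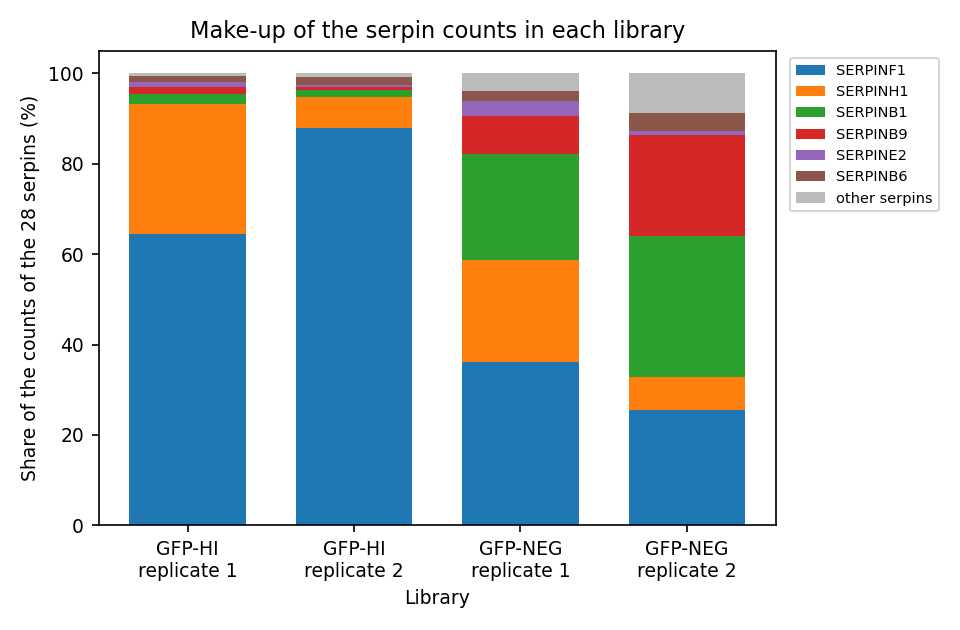
Share of the counts of the 28 serpins taken by each of the 6 named genes and by the other members together, in percent, for each library. SERPINF1 takes 64.6% and 88.0% in GFP-HI, and SERPINB1 and SERPINB9 take a larger share in GFP-NEG.

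Other protease inhibitors outside the serpin family were read from a list with 24 tested genes. It includes genes grouped with inhibitors by name, such as the ITIH heavy chains, and not all of them inhibit proteases themselves. Of the 24, 8 rose and 3 fell (8.35% and 27.6% of all tested genes), with a median of 0.17. ITIH5, a heavy chain that binds hyaluronan, was at 2369 and 1480 CPM in GFP-HI and at 177 and 84.7 CPM in GFP-NEG, with a rise of 3.88 in log2 units (edgeR, adjusted p of 3.2e-04). PI16, a marker of adventitial fibroblasts, rose by 3.44, PCSK1N, an inhibitor of a prohormone convertase, by 3.27, and RECK, a membrane inhibitor of matrix metalloproteinases, by 2.40. ITIH4, a plasma protein, fell by 2.59, and CSTA, an intracellular inhibitor of cathepsins, had 0 counts in GFP-HI against 21 and 10, at least 7.37-fold lower. CSTA entered the main fit through GFP-NEG alone, which favoured a lower value. Under DESeq2 the number that rose was 5. It was 4 without GFP-HI replicate 1, 3 without GFP-HI replicate 2 and 2 without GFP-NEG replicate 2, and the number that fell was 1 without GFP-HI replicate 2 and 1 without GFP-NEG replicate 1. ITIH5 and PCSK1N passed in each of these fits. PI16 lost its call without GFP-HI replicate 2 or GFP-NEG replicate 2 (3.03 and 2.87), RECK without GFP-HI replicate 1 or GFP-NEG replicate 2 (2.15 and 1.62), ITIH4 without GFP-NEG replicate 1 (-1.50) and CSTA without either GFP-HI library (adjusted p of 0.055 and 0.057, edgeR).

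The authors' deposited table lists 13 of the members and calls 6 of them at an adjusted p under 0.05, against 19.4% of its 16250 genes. In the authors' deposited table the log2 fold change is 3.08 for SERPINF1 (adjusted p 1.6e-05). SERPINA3-2 is the tested member outside that table.

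**Figure D5:**
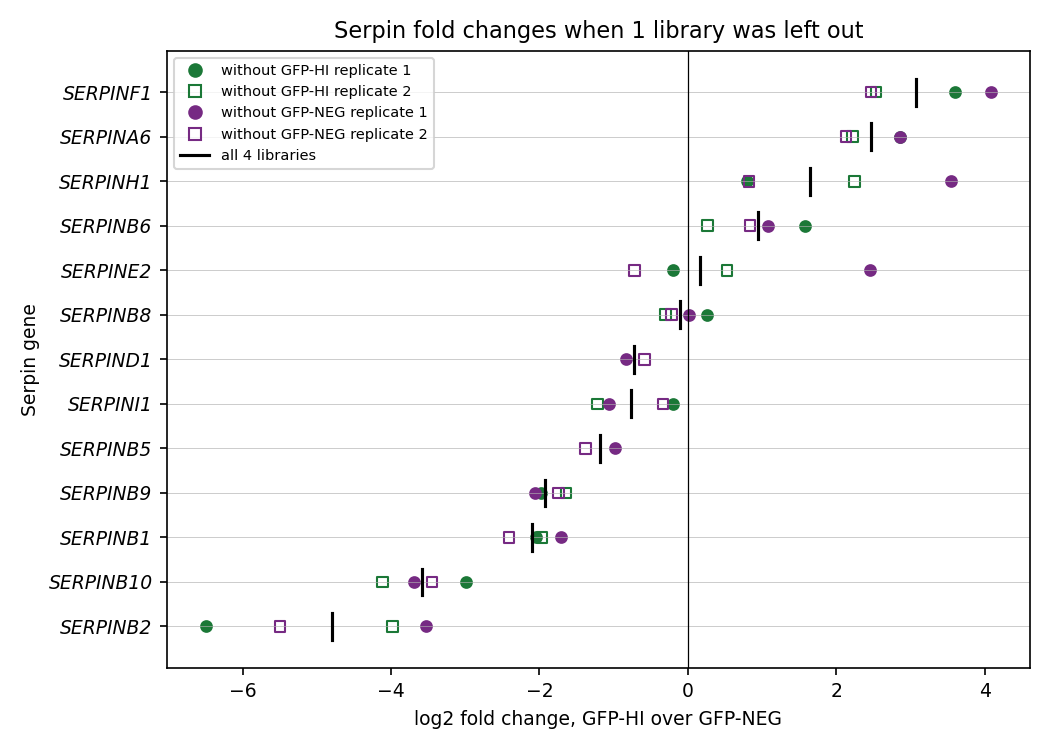
Log2 fold change of each tested serpin with counts in GFP-HI, with all 4 libraries (black bar) and with 1 library left out (green for a GFP-HI and purple for a GFP-NEG library, filled circles for replicate 1, open squares for replicate 2). SERPINB10 stays between -4.12 and -2.99, SERPINE2 ranges from -0.72 to 2.45 and SERPINH1 from 0.79 to 3.54.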

How the data were processed

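RNA was measured in 4 libraries of sorted pig lung cells (2 GFP-HI, 2 GFP-NEG). The authors deposited raw counts per gene for each library, as whole numbers, and a comparison table. Per the file headers that table gives, for each gene, its log2 change with a score for the test and both the p-value and its adjusted form. Another 4 columns of values per sample in that table, with normalized values, were not used, because for some of them heading and values pointed to different libraries. Per the submitters' processing notes the tools were featureCounts, Subread 1.5.2 and DESeq2 1.37.6. The aligner, genome build and strand setting are not given in the sources used here, so overlapping, antisense and near-identical genes are uncertain. Library totals, given in the results, limit the precision, and 0 rows named no gene.

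The counts were fitted with edgeR 4.0.16 in R 4.3.3 (quasi-likelihood F test, TMM scaling, filterByExpr, group as the only term) over 19682 genes, with Benjamini-Hochberg adjustment over all of them and a threshold of 0.05. CPM are counts divided by library total and TMM factor. Standard errors are the absolute log2 fold change over the root of the F statistic. The common dispersion was 0.239, and the genewise spread was moderated fully to the trend. Differences within a replicate use log2 CPM with a prior count of 2. That libraries with the same replicate number come from 1 animal is an inference and not stated: headings of the comparison table name 2 pigs with both fractions each, but for 2 of these 4 headings the values are those of a library of the other fraction. Deviations from the group means correlated between same-numbered libraries with an r of 0.160 across genes. The main fit has no block, and the blocked fit was an alternative. Other alternatives were RLE, library size and upper quartile scaling, no filter, a filter of 1 CPM in 2 libraries, DESeq2 1.42.0, GFP-HI thinned to the GFP-NEG depth (seed 11) and each library left out. The procedure was tested on simulated data.

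Of the Ensembl identifiers, 834 were given a symbol from the name table to read the gene lists. The rule gave 29 members, of which 1 is not reported here. Each tested member described is named, members under the filter are given by their counts, and up to 6 genes past the threshold with the largest change are named per list. Members and lists were chosen with earlier results of these data known, and no list was tested as a set.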

Additional observations from a re-analysis of the deposited data

How the results depend on the processing

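SERPINB10 kept its direction and its call in all 12 alternatives, and of the 159 alternative values of the 14 tested serpins, 133 kept both direction and side of the threshold, 17 lost a call, 3 gained one and 6 changed sign. Each reversed value belonged to a member named in the following. SERPINE2, at 0.16, was at -0.11 with library size scaling, -0.045 with upper quartile scaling, -0.20 without GFP-HI replicate 1 and, over all fits that left out a library, from -0.72 to 2.45. SERPINB8, at -0.11, was at 0.26 without GFP-HI replicate 1 and 0.01 without GFP-NEG replicate 1, was at its lowest among fits that left out a library, -0.30, without GFP-HI replicate 2, and at its lowest among all alternatives, -0.55, with library size scaling. The cause was not tested.

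The replicate block gave 1707 genes higher and 4793 lower, and 3 serpins higher and 5 lower; SERPINH1 gained a call with it and it changed no other call of a tested serpin. It put the median of the tested serpins at -0.96. Against 1643 genes called higher, library size scaling gave 888 and upper quartile scaling 1083, and 1 serpin was then higher in either, with serpin medians of -1.20 and -1.10. These scalings moved the median of all genes from -0.25 to -0.68 and -0.58, and the share of calls that were higher from 23.2% to 13.4% and 16.1%. Random thinning of both GFP-HI libraries left 16509 genes and 11 serpins tested against 19682 and 14, and gave 3562 genes lower against 5433, 1 serpin higher and a serpin median of -0.42. That median became -2.20 when the filter was dropped (27 serpins tested), -0.81 with the filter of 1 CPM (13 tested) and -1.62 under DESeq2 (21 tested), against -0.75 with 14. Leaving out single libraries gave 216 to 1635 genes higher, 1575 to 4999 lower, 0 to 4 serpins higher, 2 to 5 serpins lower and serpin medians from -1.64 to -0.58.

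The depth of GFP-NEG, where 1 count is worth up to 0.155 CPM, limits what can be called higher in GFP-HI among low members, and with 2 libraries in each group the test leans on the spread shared by all genes.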
